A study of Mus musculus with 11 samples.

Results

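The 60 genes described here act in the copying of DNA and in the division of the cell that follows. They were chosen by name as a list with 3 classes, 10 licensing genes, 22 S phase genes and 28 mitosis genes, and were followed on 11 arrays of mouse lung RNA. Of the 60, 53 had a probe set among the 14351 genes of the series, and 27 of these (9 licensing, 11 S phase and 7 mitosis genes) were bright enough to test among 8085 tested genes. The deposited values are log2 expression values, in which a difference of 1 is a doubling, and where a gene had several probe sets the one with the highest mean was used.

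Lungs of Balb/c mice without Eif4ebp1 and Eif4ebp2 (4ebp1-/-/4ebp2-/-, called knockout here) were compared with lungs of WT Balb/c mice (wild type), which were bought from a commercial breeder while the knockout mice came from another laboratory. Both genotypes were given AIN-93M purified diet from 5 weeks of age, and no source used here gives the age at which lungs were taken. The genes code for 4E-BP1 and 4E-BP2, small repressors of translation that capture eIF4E, the protein that recognises the cap of a message, and the labels name no cell type to which the deletion was limited. Total RNA was measured on 3 knockout and 3 wild-type arrays, and polysomal RNA on 3 knockout and 2 wild-type arrays. Polysomal RNA was the RNA of pooled gradient fractions 7 to 10 of 10, which hold messages carrying 3 or more ribosomes. Nothing in the labels ties 1 array to 1 mouse, and the p-values therefore measure only the spread between arrays, which may be technical.

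Cells prepare to copy their DNA by licensing: in G1 the origin recognition complex, with Cdc6 and Cdt1, loads a ring of Mcm2 to Mcm7 onto each origin, and this ring later unwinds the DNA. In S phase the cyclin E kinase, the primase, the clamp loader, flap endonuclease, ligase and the enzymes that make nucleotides carry out the copying. In mitosis, kinetochore and spindle proteins attach and separate the chromosomes under the watch of the spindle checkpoint. Most cells of an adult lung are not dividing. The RNA was of whole tissue, where more cells of a kind and more RNA per cell cannot be told apart.

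These gene classes are known for letters near their start sites: E2F-type letters for genes that rise at the entry into S phase, and CHR and CCAAT letters for genes that rise later. To show what the members carry, the RefSeq windows of 300 bases (250 before to 50 after the start, mouse build GRCm38.p6) were searched on both strands for 3 kinds of letters. E2F-type letters had 4 spellings of 7 letters: the first spelling was TTGGCGC, the second spelling was TTCCCGC, the third spelling was TTCGCGC, and the last spelling was TTGCCGC. CHR letters were the 6 letters of TTTGAA, and CCAAT letters the 5 of that name. Matches that overlapped were counted each, also where the end of CCAAT letters runs into E2F-type letters. A gene counted if any of its windows held the letters, and 49 of the 60 genes had a window. E2F-type letters were in 7 of 9 licensing genes (77.8%), 10 of 17 S phase genes (58.8%) and 4 of 23 mitosis genes (17.4%), against 19.1% of 6478 tested genes with a window and 10.9% of all 27025 genes of the table. CHR letters were in 1 of 9 licensing genes (11.1%), 2 of 17 S phase genes (11.8%) and 15 of 23 mitosis genes (65.2%), against 14.0% of the tested genes and 20.2% of the table. CCAAT letters were in 7 of 9 licensing genes (77.8%), 8 of 17 S phase genes (47.1%) and 18 of 23 mitosis genes (78.3%), against 42.9% of the tested genes and 41.1% of the table. A match is only a description of the letters.

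**Figure D1:**
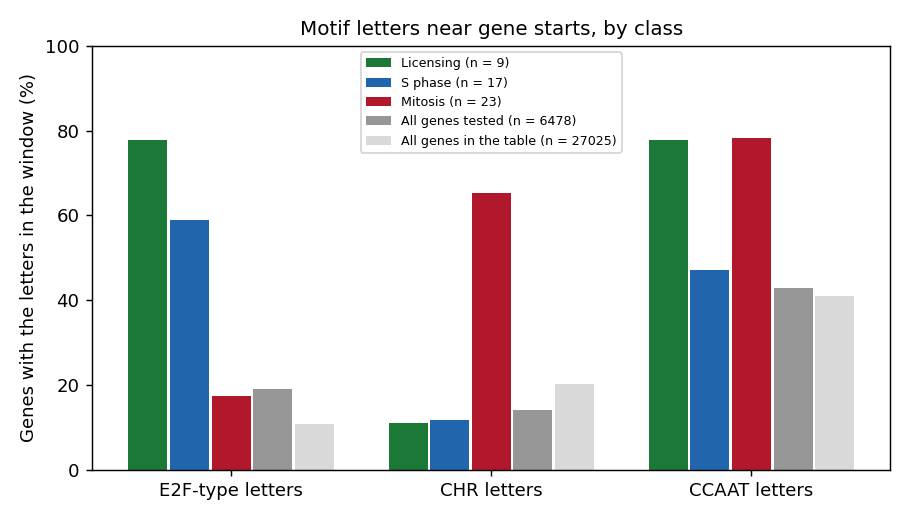
Share of genes (%) whose window from 250 bases before to 50 after the start held E2F-type, CHR or CCAAT letters, for the licensing, S phase and mitosis genes, all tested genes and all genes of the table. E2F-type bars are tall for licensing (77.8%) and S phase genes (58.8%), and the CHR bar is tall for mitosis genes (65.2%).

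The windows of 6 tested genes are printed because these genes had the largest fitted knockout minus wild-type differences in polysomal RNA within their class among genes with a single window. Capitals mark the letters found. Mcm6 held 5 E2F-type and 2 CCAAT matches, Hells and Fignl1 held 2 E2F-type matches each, Cdc6 held 1, Spc25 held 1 CHR and 2 CCAAT matches, and Nusap1 held none of the letters in this window.
Cdc6, chr11:98907901-98908200, plus strand: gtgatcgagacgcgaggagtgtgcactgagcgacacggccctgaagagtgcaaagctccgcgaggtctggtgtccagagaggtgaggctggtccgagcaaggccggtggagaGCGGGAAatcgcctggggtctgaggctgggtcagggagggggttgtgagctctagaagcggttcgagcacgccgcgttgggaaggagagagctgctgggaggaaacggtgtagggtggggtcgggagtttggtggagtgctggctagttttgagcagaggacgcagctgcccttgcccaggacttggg
Mcm6, chr1:128359656-128359955, minus strand: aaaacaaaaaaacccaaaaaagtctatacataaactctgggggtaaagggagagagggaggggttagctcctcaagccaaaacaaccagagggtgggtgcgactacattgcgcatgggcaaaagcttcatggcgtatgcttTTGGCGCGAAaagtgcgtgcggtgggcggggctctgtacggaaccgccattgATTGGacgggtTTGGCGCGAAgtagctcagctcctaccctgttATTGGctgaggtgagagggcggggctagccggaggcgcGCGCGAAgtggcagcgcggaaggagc
Hells, chr19:38930740-38931039, plus strand: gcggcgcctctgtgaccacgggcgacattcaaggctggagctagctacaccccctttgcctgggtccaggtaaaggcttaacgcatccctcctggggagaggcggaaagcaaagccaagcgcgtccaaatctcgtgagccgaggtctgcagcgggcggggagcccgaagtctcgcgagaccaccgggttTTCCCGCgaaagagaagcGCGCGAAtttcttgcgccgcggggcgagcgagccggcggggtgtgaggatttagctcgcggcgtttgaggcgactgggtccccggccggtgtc
Fignl1, chr11:11808913-11809212, minus strand: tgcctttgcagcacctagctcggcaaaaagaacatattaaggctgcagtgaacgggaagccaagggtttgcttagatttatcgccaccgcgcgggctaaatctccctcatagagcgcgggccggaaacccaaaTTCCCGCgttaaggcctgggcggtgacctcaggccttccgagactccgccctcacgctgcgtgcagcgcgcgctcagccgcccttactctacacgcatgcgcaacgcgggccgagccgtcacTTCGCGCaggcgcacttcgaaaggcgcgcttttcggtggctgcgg
Spc25, chr2:69206164-69206463, minus strand: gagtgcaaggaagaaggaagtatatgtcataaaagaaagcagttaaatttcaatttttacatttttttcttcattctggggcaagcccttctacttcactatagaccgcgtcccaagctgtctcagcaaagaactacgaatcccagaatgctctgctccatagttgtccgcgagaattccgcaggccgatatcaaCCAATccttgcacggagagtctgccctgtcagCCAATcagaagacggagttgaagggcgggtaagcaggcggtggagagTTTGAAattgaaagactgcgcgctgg
Nusap1, chr2:119618048-119618347, plus strand: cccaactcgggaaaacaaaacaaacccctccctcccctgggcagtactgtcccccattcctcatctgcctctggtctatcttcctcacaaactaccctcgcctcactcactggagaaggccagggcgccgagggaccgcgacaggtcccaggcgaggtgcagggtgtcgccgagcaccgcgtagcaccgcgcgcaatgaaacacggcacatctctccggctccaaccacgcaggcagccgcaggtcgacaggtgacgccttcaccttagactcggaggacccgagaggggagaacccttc

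The genotype labels were checked first. Eif4ebp2 read 2.61, 3.10 and 3.26 on the knockout arrays, against 4.50, 5.49 and 4.67 on the wild-type arrays in total RNA, and 3.90, 3.92 and 3.75 on the knockout arrays, against 5.76 and 6.09 on the wild-type arrays in polysomal RNA. It fell in both, by 1.90 (SE 0.25, adjusted p = 0.0016) and by 2.07 (SE 0.28, adjusted p = 0.0025). Eif4ebp2 reached 5, the value needed for testing, on wild-type arrays alone. It was thus tested through the genotype in which it was high, and the size of its fall is uncertain. Eif4ebp1 fell too, with differences of -0.40 (SE 0.11, adjusted p = 0.033) and -0.67 (SE 0.13, adjusted p = 0.0096). No source used here places these probes relative to the deleted parts. A list of the deleted genes and their family held 4 tested genes. Of the 4, 3 were called lower and 0 higher in total RNA, and 3 lower and 1 higher in polysomal RNA. A fall was thus not limited to the deleted genes. Lung epithelium markers, such as the surfactant proteins, were bright on every array, and 10 of 12 were tested. Their summed level was 18.165 to 18.175 in knockout and 17.657 to 17.997 in wild-type total RNA, so every knockout array was higher. In polysomal RNA it was 18.47 to 18.54 in knockout and 18.51 to 18.59 in wild type, which overlapped. Of the 10 markers, 4 were called higher in knockout and 0 lower in total RNA, and none was called in polysomal RNA. Adjusted p-values are from limma's test over all 13802 tested probe sets, and a gene is called where this is under 0.05.

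Many genes of cell division stood near the floor of the arrays. Among the 53 genes with a probe set, 26 did not reach a log2 value of 5 on any array and were not tested, and 19 of them stayed below 3.5 throughout. These were the licensing gene Orc1, the S phase genes Mcm10, Cdc45, Ccne1, Pole, Tyms and Uhrf1, and 19 mitosis genes: the mitotic kinase Cdk1 and its cyclins Ccna2, Ccnb1 and Ccnb2, the kinases Plk1, Aurka, Aurkb, Bub1, Bub1b and Ttk, the transcription factor Foxm1, the kinetochore genes Ndc80, Nuf2 and Cenpe, the spindle motors Kif11 and Kif20a, and Prc1, Tpx2 and Birc5. Their highest value on any array was 4.96, of Bub1. Gins1, Gins2, Pcna, Rfc3, Rfc5, Cenpf and Mki67 had no probe set that matched and are not analysed here. A value of 5 on at least 2 arrays was the filter. Of the 27 tested genes, 15 were at 5 or more on all 11 arrays, and Dscc1, Tk1 and Sgo1 passed through 3 knockout arrays each and no wild-type array. Since such genes pass because they are high in one group, the counts below are descriptions. The main counts of calls over the 27 genes are also given without these 3. The files hold no detection calls, so a wild-type value below 5, in the range of the untested genes, may not be above background. The fitted difference from such values is given without a fold, and was ranked only to pick the windows printed above. The true size may differ from it.

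**Figure D2:**
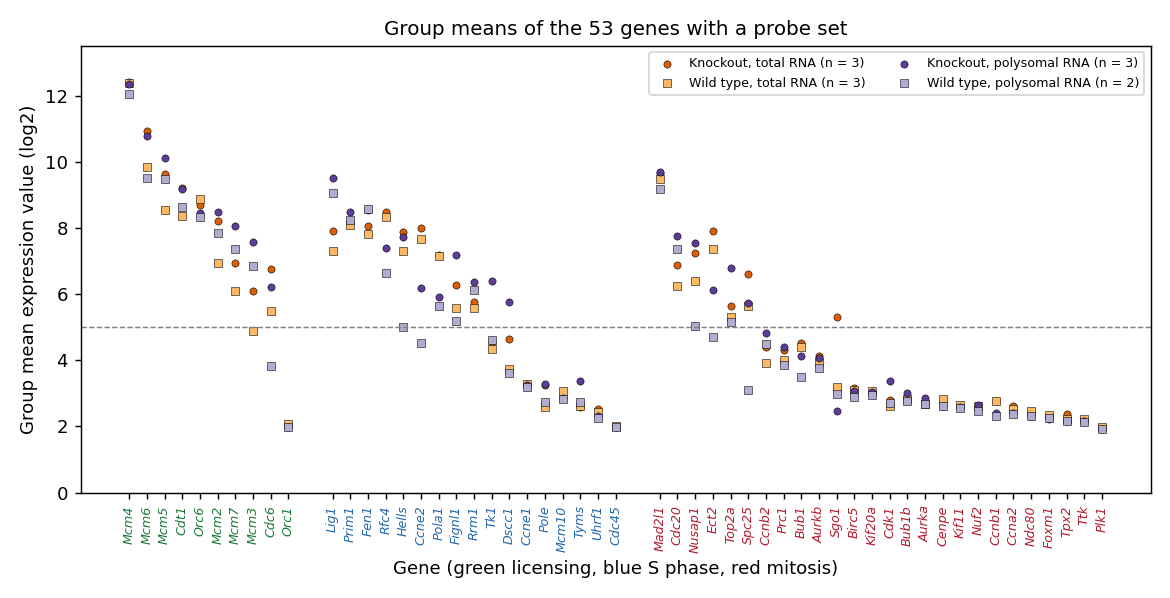
Group mean expression value (log2) of the 53 genes with a probe set, by class, for knockout and wild-type total RNA (3 arrays each) and knockout (3 arrays) and wild-type (2 arrays) polysomal RNA; the dashed line is the filter value of 5. The 26 genes that were not tested lie below the line in every group, and the groups are far apart for the tested genes Hells, Ccne2, Ect2, Spc25, Nusap1 and Sgo1.

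Summed levels of markers of some other cell types were higher on the knockout arrays, and a sum can follow its brightest marker. Over all 8085 tested genes 17.2% were called higher and 5.97% lower in total RNA, and 8.36% and 6.77% in polysomal RNA. For red cell precursors, 11 of 14 markers had a probe set and 2 were tested. Their summed level was 9.65 to 10.41 in knockout and 8.19 to 8.65 in wild-type total RNA, and 11.8 to 12.9 in knockout and 10.5 on both arrays in wild-type polysomal RNA. Most of it was Alas2, the first enzyme of heme synthesis, while Klf1 and Gata1 stayed below 3.7 on every array. Of the 2 tested, 1 was called higher and 0 lower in each kind of RNA. For B cells, 6 of 7 markers had a probe set, 5 were tested, and Pax5 stayed at 1.84 or below. In total RNA their summed level was 9.47 to 10.6 in knockout and 8.70 to 9.30 in wild type. In polysomal RNA it was 9.74 to 10.8 in knockout and 8.92 to 9.63 in wild type. Of the 5 tested, 1 was called higher and 0 lower in total RNA, and none was called in polysomal RNA. The 10 endothelium markers, all tested, summed to 14.90 to 14.97 in knockout and 14.31 to 14.42 in wild-type total RNA. In polysomal RNA their ranges overlapped, at 16.29 to 16.49 in knockout and 16.45 to 16.56 in wild type. Of the 10, 6 were called higher and 0 lower in total RNA, and none was called in polysomal RNA. Heart muscle markers (7 of 8 tested) overlapped in both kinds of RNA. They summed to 11.58 to 12.13 in knockout and 10.81 to 11.59 in wild-type total RNA, and to 12.7 to 13.6 in knockout and 12.5 to 13.0 in wild-type polysomal RNA. The summed level of alveolar macrophage markers (7 of 9 tested) was lower. In total RNA it was 14.70 to 14.86 in knockout and 14.89 to 15.4 in wild type. In polysomal RNA it was 15.5 to 15.7 in knockout and 15.9 to 16.1 in wild type. Of the 7, 4 were called lower and 1 higher in total RNA, and 3 lower and 0 higher in polysomal RNA. The ranges overlapped in total RNA for T and NK cell markers (7 of 10 tested), at 10.2 to 11.2 in knockout and 10.1 to 10.6 in wild type, and for neutrophil markers (4 of 12 tested), at 13.6 to 13.9 in knockout and 12.5 to 14.8 in wild type. In polysomal RNA the T and NK cell markers overlapped too, at 10.98 to 12.1 in knockout and 10.76 to 11.5 in wild type, while the neutrophil markers were higher, at 14.61 to 14.85 in knockout and 14.05 to 14.21 in wild type. Of the 4 neutrophil markers tested, 2 were called higher and 0 lower in total RNA, and 1 higher and 0 lower in polysomal RNA. Elane and Mpo, which define neutrophil precursors, stayed at 2.19 or below on every array. The part of these cells in the results that follow was not tested. Thymocyte markers were not above the filter on any array (0 of 8 tested, Rag1 at most 2.31 and Ptcra at most 2.23).

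In total RNA the licensing genes stood higher in knockout lung. Of 9 tested, 7 rose (Mcm2, Mcm3, Mcm5, Mcm6, Mcm7, Cdc6 and Cdt1), none fell, and the median difference was 1.06. None of the 11 S phase genes was called by limma (3 were higher and 0 lower at an unadjusted p under 0.05), with a median of 0.24. Of 7 mitosis genes 2 rose, Cdc20 and Sgo1, and none fell, with a median of 0.63. Over all 8085 genes 23.2% were called (17.2% rose and 5.97% fell) and the median difference was 0.085. Together 9 of 27 tested genes rose, or 8 of 24 without the 3 that passed through knockout arrays alone. At an unadjusted p under 0.05, 15 of 27 were higher and 0 lower. The classes were not compared with each other by a test.

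Mcm5, a subunit of the helicase ring, read 9.53, 9.75 and 9.63 on the knockout arrays, against 8.42, 8.42 and 8.78 on the wild-type arrays, a difference of 1.10 (SE 0.13, adjusted p = 9.0e-04) or 2.14-fold. The ring subunit Mcm6 read 10.75, 10.96 and 11.04 on the knockout arrays, against 9.85, 9.68 and 10.02 on the wild-type arrays, a difference of 1.06 (SE 0.14, adjusted p = 0.0013). All knockout arrays lay above all wild-type arrays for both subunits. Mcm2, which forms the gate of the ring with Mcm5, read 8.01, 8.34 and 8.23 on the knockout arrays, against 7.04, 6.67 and 7.10 on the wild-type arrays, and rose by 1.26 (SE 0.17, adjusted p = 0.0018). Mcm3 read 5.83, 6.35 and 6.12 on the knockout arrays, against 4.85, 4.61 and 5.20 on the wild-type arrays, and rose by 1.22 (SE 0.19, adjusted p = 0.0031). The groups were apart again, and for Mcm3 the wild-type values lay around the filter value of 5. Mcm7 rose by 0.83 (SE 0.15, adjusted p = 0.0049), and the loading factors Cdc6 and Cdt1 by 1.25 (SE 0.21, adjusted p = 0.0037) and 0.84 (SE 0.13, adjusted p = 0.0032). Mcm4, the remaining subunit of the ring, read 12.36, 12.36 and 12.50 on the knockout arrays, against 12.37, 12.29 and 12.52 on the wild-type arrays, a difference of 0.01 (SE 0.11, adjusted p = 0.95), so the ring's genes did not all pass the test. Orc6, a subunit of the origin recognition complex, differed by -0.20 (SE 0.12, adjusted p = 0.24).

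The S phase genes nearest to the threshold were Dscc1, part of an alternative clamp loader, and Fignl1, an ATPase of homologous recombination. Dscc1 read 4.02, 4.97 and 4.98 on the knockout arrays, against 3.35, 3.81 and 4.07 on the wild-type arrays, all below the filter value, and differed by 0.91 (SE 0.30, adjusted p = 0.053). Fignl1 read 6.23, 6.50 and 6.08 on the knockout arrays, against 5.93, 5.15 and 5.67 on the wild-type arrays, and differed by 0.68 (SE 0.25, adjusted p = 0.08). The knockout arrays of Fignl1 all lay above the wild-type arrays, while those of Dscc1 overlapped them. The replication enzymes proper differed little: 0.02 for the polymerase subunit Pola1, 0.14 for the primase Prim1, 0.16 for the clamp loader Rfc4, 0.24 for the flap endonuclease Fen1 and 0.19 for the ribonucleotide reductase subunit Rrm1. The DNA ligase Lig1 differed by 0.60 (SE 0.23, adjusted p = 0.087). None of these passed the test.

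Sgo1, the shugoshin that guards cohesion at the centromere, read 5.82, 5.08 and 5.04 on the knockout arrays, against 3.16, 3.16 and 3.28 on the wild-type arrays. It had no wild-type value above 3.28 and no knockout value below 5.04, and the fitted difference was 2.11 (SE 0.29, adjusted p = 0.0018). Its wild-type values were in the range of the untested genes and it was tested through the 3 knockout arrays alone, so the size of this difference is uncertain. Cdc20, the activator of the anaphase-promoting complex, read 6.80, 6.90 and 6.95 on the knockout arrays, against 6.35, 6.01 and 6.39 on the wild-type arrays, and rose by 0.63 (SE 0.20, adjusted p = 0.048). The Cdc20 groups did not overlap, but its call was lost when any of 9 of the 11 arrays was left out. Of the other mitosis genes, the kinetochore gene Spc25 differed by 0.97 (SE 0.39, adjusted p = 0.10), the spindle gene Nusap1 by 0.84 (SE 0.32, adjusted p = 0.086) and Ect2, the exchange factor that drives cytokinesis, by 0.56 (SE 0.18, adjusted p = 0.056).

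Arrays of the 2 genotypes did not overlap in total RNA for 13 of the 27 genes, all higher in knockout: 7 of 9 licensing, 1 of 11 S phase and 5 of 7 mitosis genes. Over all tested genes 28% were apart in this direction and 14% in the other. Sgo1, which passed the filter through knockout arrays alone, is among the 13. One wild-type array, replicate 3, stood closer to the knockout arrays for several genes: Hells read 7.96 on it and 7.22 and 6.76 on the other wild-type arrays. Without that array 14 genes were called in place of 9, with Lig1, Dscc1, Hells, Spc25, Nusap1 and Ect2 gained. Over all genes 26.7% were called without it, in place of 23.2%. Each array carries a letter A, B or C as its replicate set, and the labels leave its meaning unexplained. Within set A the median knockout minus wild-type difference was 0.99 for licensing, 0.44 for S phase and 0.94 for mitosis genes, and within set B it was 0.92, 0.13 and 0.18. All 9 called genes were above 0 within both sets. This adds no support, since for each of them every knockout array lay above every wild-type array. Over all genes 1393 of 1876 called were higher in knockout, and with the arrays quantile normalized it was 1199 of 1978; 9 of the 27 genes were called under that scaling, all higher.

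In polysomal RNA all 3 classes held genes that were higher in knockout lung, among them Hells, Spc25 and Nusap1. Of 9 licensing genes 5 rose (Mcm5, Mcm6, Mcm7, Cdc6 and Cdt1; median 0.63), of 11 S phase genes 5 rose (Ccne2, Dscc1, Tk1, Hells and Fignl1; median 0.76), and of 7 mitosis genes 5 rose (Mad2l1, Spc25, Nusap1, Ect2 and Top2a; median 1.42). None fell. Over all 8085 genes 15.1% were called (8.36% rose and 6.77% fell) and the median difference was -0.0080. The 15 of 27 became 13 of 24 without the genes that passed through knockout arrays alone, and 20 of 27 were higher and 0 lower at an unadjusted p under 0.05.

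**Figure D3:**
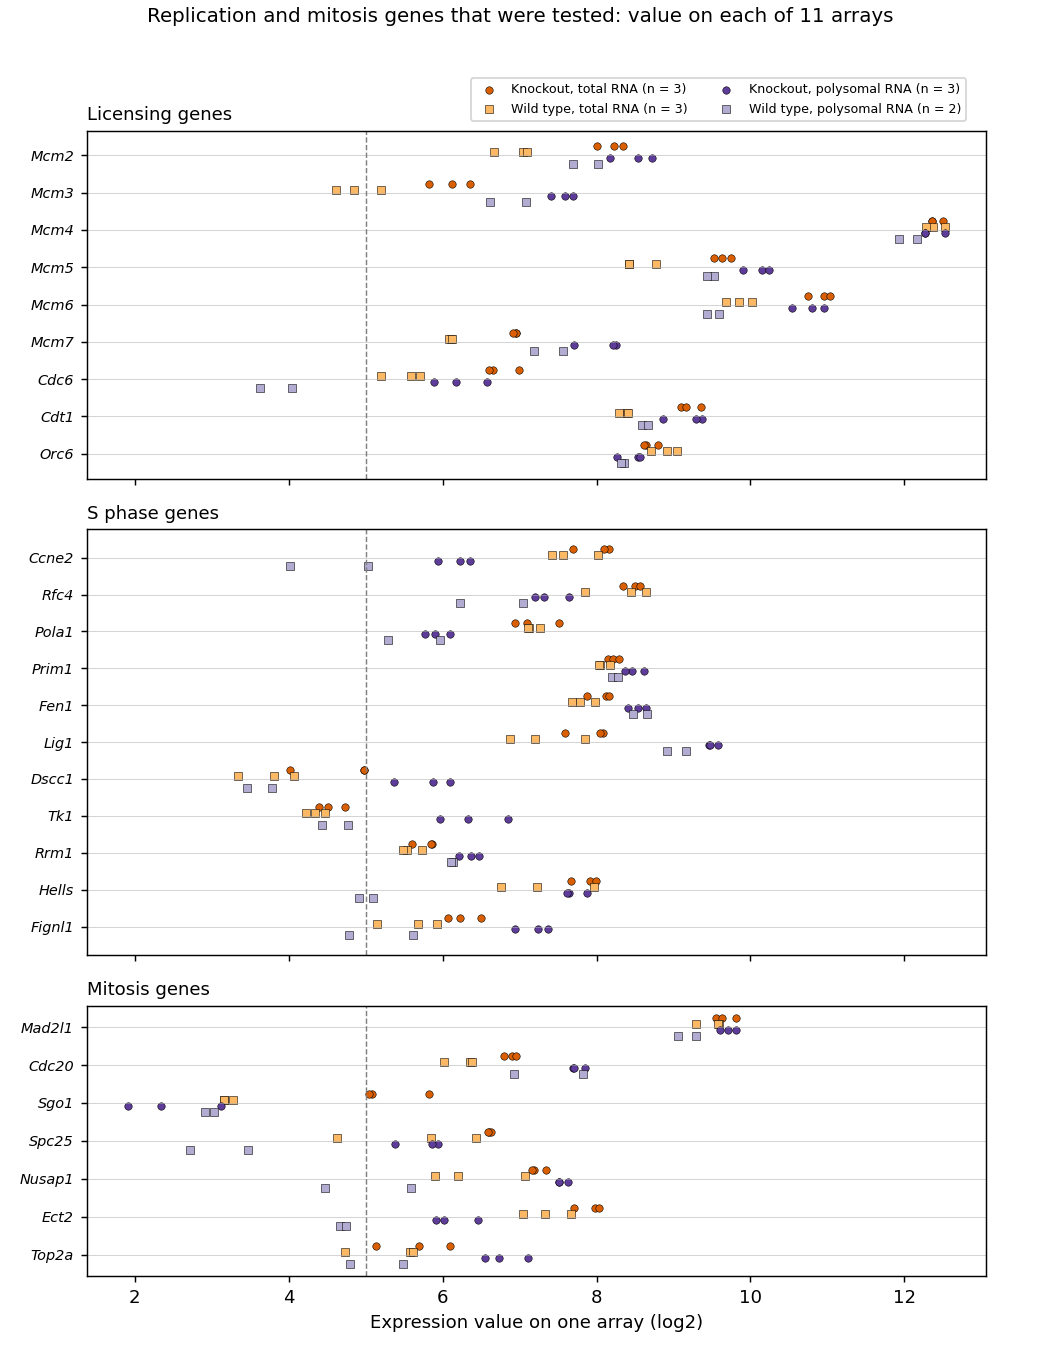
Expression value (log2) of the 27 tested genes on each array, in 3 panels by class, with knockout arrays as circles and wild-type arrays as squares for total RNA (orange, 3 and 3 arrays) and polysomal RNA (purple, 3 and 2 arrays); the dashed line is the filter value of 5. In polysomal RNA the wild-type squares of Cdc6, Hells, Spc25 and Nusap1 lie far to the left of the knockout circles.

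Cdc6, which loads the helicase ring, read 5.89, 6.58 and 6.17 on the knockout arrays, against 3.62 and 4.05 on the wild-type arrays. The wild-type values were below 5 and every knockout value was above it, with a fitted difference of 2.38 (SE 0.23, adjusted p = 7.5e-04). Mcm6 read 10.95, 10.80 and 10.54 on the knockout arrays, against 9.59 and 9.44 on the wild-type arrays, and rose by 1.25 (SE 0.15, adjusted p = 0.0015). Mcm5 read 10.16, 10.24 and 9.91 on the knockout arrays, against 9.53 and 9.43 on the wild-type arrays, and rose by 0.62 (SE 0.14, adjusted p = 0.019). The groups of all 3 genes were apart. Mcm7 read 7.71, 8.25 and 8.21 on the knockout arrays, against 7.18 and 7.57 on the wild-type arrays, and rose by 0.68 (SE 0.17, adjusted p = 0.025). Mcm2 and Mcm3, called in total RNA, differed here by 0.63 (SE 0.19, adjusted p = 0.058) and 0.72 (SE 0.21, adjusted p = 0.051), which missed the threshold.

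Hells, a chromatin remodeller needed for DNA methylation in dividing cells, read 7.88, 7.65 and 7.62 on the knockout arrays, against 4.91 and 5.09 on the wild-type arrays. This was a difference of 2.71 (SE 0.28, adjusted p = 8.3e-04), with the wild-type values around the filter value. Tk1, the thymidine kinase of S phase, read 6.33, 6.86 and 5.97 on the knockout arrays, against 4.44 and 4.77 on the wild-type arrays, and rose by 1.78 (SE 0.23, adjusted p = 0.002). Its wild-type values were below the filter value. Fignl1 read 7.24, 7.37 and 6.94 on the knockout arrays, against 5.62 and 4.78 on the wild-type arrays, and rose by 1.98 (SE 0.28, adjusted p = 0.0027). Dscc1 read 5.87, 6.10 and 5.36 on the knockout arrays, against 3.78 and 3.45 on the wild-type arrays, and rose by 2.16 (SE 0.33, adjusted p = 0.0036). In each of these genes the lowest knockout array stood above the highest wild-type array by more than 1 log2 unit. For Dscc1 and Tk1 this adds no support, since they passed the filter through knockout arrays alone. The wild-type values of Dscc1 were in the range of the untested genes, so the size of its difference is uncertain. Cyclin E2, Ccne2, which activates Cdk2 at the start of S phase, rose by 1.65 (SE 0.29, adjusted p = 0.0065). The polymerase, primase, flap endonuclease, ligase and reductase genes were not called: Pola1 differed by 0.29, Prim1 by 0.24, Fen1 by -0.04, Lig1 by 0.46 and Rrm1 by 0.23. The clamp loader Rfc4 differed by 0.76 (SE 0.27, adjusted p = 0.092).

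Nusap1, which bundles spindle microtubules, read 7.52, 7.51 and 7.62 on the knockout arrays, against 5.59 and 4.47 on the wild-type arrays, and rose by 2.52 (SE 0.35, adjusted p = 0.0027). Ect2 read 6.02, 6.46 and 5.91 on the knockout arrays, against 4.67 and 4.75 on the wild-type arrays, and rose by 1.42 (SE 0.21, adjusted p = 0.0029). Both sets of knockout arrays lay wholly above the wild-type arrays. Spc25, a subunit of the Ndc80 complex that ties kinetochores to microtubules, read 5.93, 5.87 and 5.39 on the knockout arrays, against 3.47 and 2.72 on the wild-type arrays. Its fitted difference was 2.63 (SE 0.44, adjusted p = 0.005), from wild-type values in the range of the untested genes. Top2a, the topoisomerase that untangles sister DNA, read 6.73, 6.55 and 7.11 on the knockout arrays, against 4.80 and 5.49 on the wild-type arrays, and rose by 1.66 (SE 0.35, adjusted p = 0.014). The call of Top2a was lost without wild-type polysomal replicate 1. The checkpoint gene Mad2l1 rose by 0.53 (SE 0.13, adjusted p = 0.028). Sgo1 read 2.35, 3.12 and 1.91 on the knockout arrays, against 3.03 and 2.92 on the wild-type arrays here, all below the filter value, and differed by -0.52 (SE 0.32, adjusted p = 0.33).

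Arrays did not overlap in polysomal RNA for 22 of the 27 genes, all higher in knockout: 8 of 9 licensing, 9 of 11 S phase and 5 of 7 mitosis genes. Over all tested genes 23.8% were apart in this direction and 25.2% in the other. Dscc1 and Tk1, which passed the filter through knockout arrays alone, are among the 22. Within replicate set B the median difference was 0.71 for licensing, 1.19 for S phase and 1.76 for mitosis genes, and within set C it was 0.49, 0.80 and 1.16. All 15 called genes were above 0 within both sets, which again had to follow because their knockout and wild-type arrays did not overlap. Calls held under every alternative that tested the gene for 10 of the 15 genes, but of these Dscc1 and Tk1 were not tested with a filter of at least 6 on at least 3 arrays. Those of Mcm5, Mcm7, Cdt1, Mad2l1 and Top2a were lost under at least 1, with adjusted p up to 0.17. Only 2 wild-type arrays stand behind each of these differences.

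**Figure D4:**
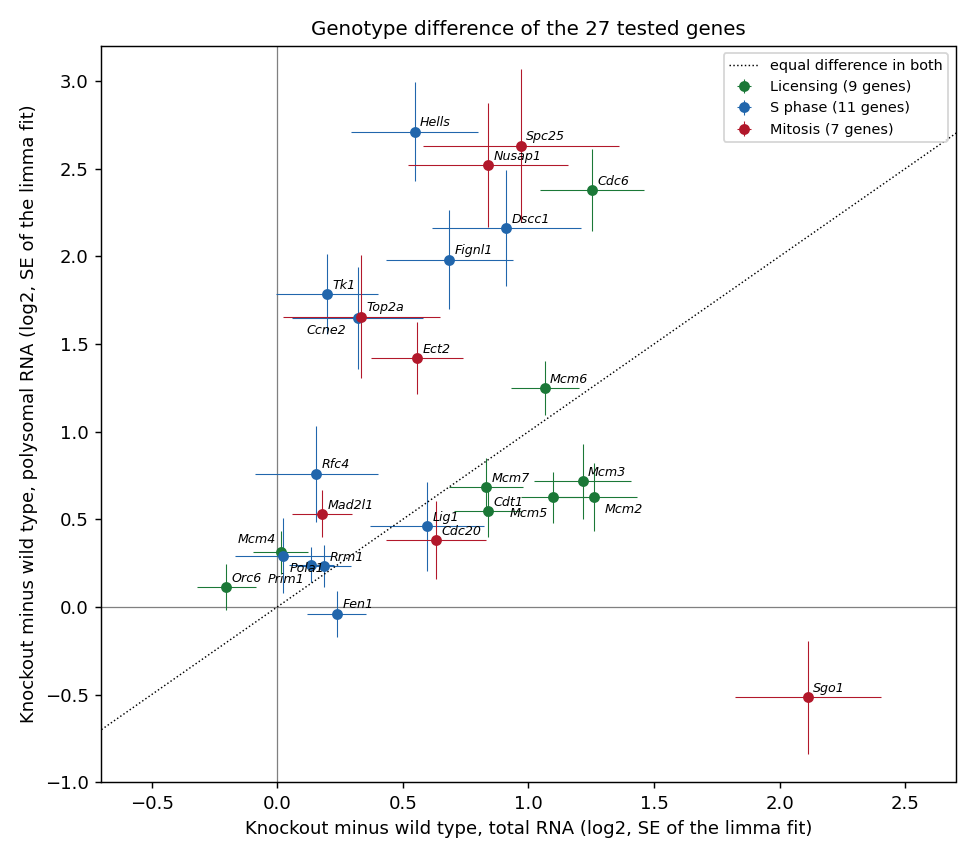
Knockout minus wild-type difference (log2) in total RNA (horizontal axis) and in polysomal RNA (vertical axis) for the 27 tested genes, coloured by class; bars are the standard error of the limma fit and the dotted line marks an equal difference in both. Hells, Spc25, Nusap1, Cdc6, Dscc1, Fignl1 and Tk1 lie above the line, and Sgo1 lies far below it at 2.11 in total and -0.52 in polysomal RNA.

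Set side by side, 5 genes rose in both kinds of RNA (Mcm5, Mcm6, Mcm7, Cdc6 and Cdt1), 4 were called in total RNA alone (Mcm2, Mcm3, Cdc20 and Sgo1), 10 in polysomal RNA alone and 8 in neither. Whether the genotype difference itself differed between polysomal and total RNA was tested as an interaction, the polysomal difference minus the total difference. Of 27 genes 7 had a positive interaction (Cdc6, Ccne2, Tk1, Hells, Fignl1, Nusap1 and Ect2) and 1 a negative one (Sgo1). Over all 8085 genes 22.3% were called (8.06% positive and 14.2% negative), with a median of -0.13, against a median of 0.30 over the 27. By class, 1 of 9 licensing genes was positive (median -0.15), 4 of 11 S phase genes (median 0.60), and 2 of 7 mitosis genes with 1 negative (median 0.86). Without the genes that passed through knockout arrays alone it was 6 positive and 0 negative of 24, and at an unadjusted p under 0.05 it was 10 positive and 3 negative of 27.

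Hells had an interaction of 2.16 (SE 0.38, adjusted p = 0.0067): its difference was 2.71 in polysomal RNA and 0.55 in total RNA. The interaction of Tk1 was 1.59 (SE 0.31, adjusted p = 0.0091), from 1.78 in polysomal RNA and 0.20 in total RNA. Tk1 read 4.73, 4.51 and 4.39 on the knockout total arrays, against 4.34, 4.23 and 4.47 on the wild-type total arrays, all below the filter value. It was above 5 on the 3 knockout polysomal arrays alone, so the size of its interaction is uncertain. The interactions of Fignl1 and Ccne2 were 1.30 (SE 0.38, adjusted p = 0.038) and 1.33 (SE 0.39, adjusted p = 0.039). On the total arrays Ccne2 read 8.16, 7.70 and 8.10 on the knockout arrays, against 8.02, 7.42 and 7.56 on the wild-type arrays, and on the polysomal arrays 5.94, 6.23 and 6.36 on the knockout arrays, against 5.04 and 4.02 on the wild-type arrays. So Ccne2 overlapped between genotypes in total RNA and was apart in polysomal RNA. Nusap1 had an interaction of 1.68 (SE 0.48, adjusted p = 0.034), Cdc6 of 1.12 (SE 0.31, adjusted p = 0.032) and Ect2 of 0.86 (SE 0.28, adjusted p = 0.04998), the last at the edge of the threshold. Sgo1 went the other way, with an interaction of -2.63 (SE 0.43, adjusted p = 0.0059). Mcm5 had an interaction of -0.47 (SE 0.19, adjusted p = 0.10), and none of the 6 Mcm ring genes was called. Of the 10 genes called in polysomal RNA alone, 6 had a called interaction and 4 did not (Dscc1, Mad2l1, Spc25 and Top2a), so for these 4 a difference between the 2 kinds of RNA was not shown.

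Of the 8 interaction calls, 5 were lost when any of several arrays was left out. The call of Hells held under every alternative run. Those of Tk1 and Sgo1 held under every alternative that tested them, and neither gene was tested with a filter of at least 6 on at least 3 arrays. Those of the other 5 genes were lost in several, with adjusted p up to 0.14. In place of 8 there were 3 without knockout total replicate 2, knockout total replicate 3 or knockout polysomal replicate 2. There were 4 without knockout total replicate 1, wild-type total replicate 1 or wild-type polysomal replicate 2, and 5 without knockout polysomal replicate 1 or 3. There were also 3 when no filter on low values was used.

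How the level of each message in polysomal RNA compared with that in total RNA was tested within a genotype, which also carries whatever differs between the 2 RNA preparations. In knockout lung 12 of 27 genes were higher in polysomal RNA and 6 lower, against 39.5% higher and 25.7% lower of all genes (65.2% called). In wild-type lung 8 were higher and 10 lower, against 44.5% higher and 27.9% lower of all genes (72.4% called). Without the genes that passed through knockout arrays alone it was 10 higher and 5 lower of 24 in knockout, and 8 higher and 10 lower in wild type. The median over the 27 genes was 0.27 in knockout and -0.23 in wild type, against 0.13 and 0.22 over all genes. With the arrays quantile normalized, the median of all genes in wild type was 0.06.

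Mcm3 and Mcm7 were higher in polysomal RNA in both genotypes. Mcm3 had a polysomal minus total difference of 1.46 (SE 0.19, adjusted p = 9.6e-05) in knockout and 1.96 (SE 0.21, adjusted p = 1.9e-05) in wild type, and Mcm7 of 1.12 (SE 0.15, adjusted p = 1.0e-04) and 1.27 (SE 0.17, adjusted p = 6.8e-05). The ligase Lig1 was likewise higher, by 1.60 (SE 0.23, adjusted p = 1.6e-04) in knockout and 1.73 (SE 0.25, adjusted p = 1.5e-04) in wild type. Ect2 was lower in polysomal RNA in both, with -1.77 (SE 0.18, adjusted p = 1.9e-05) in knockout and -2.64 (SE 0.21, adjusted p = 1.9e-06) in wild type. Ccne2 was also lower in both, with -1.81 (SE 0.26, adjusted p = 1.8e-04) and -3.14 (SE 0.29, adjusted p = 6.2e-06).

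Other genes had called differences in 1 genotype. Hells differed by -0.15 (SE 0.25, adjusted p = 0.63) in knockout and fell in wild type, at -2.31 (SE 0.28, adjusted p = 4.0e-05). Tk1 rose in knockout, at 1.84 (SE 0.20, adjusted p = 3.0e-05), and differed by 0.26 (SE 0.23, adjusted p = 0.33) in wild type. The Tk1 values in total RNA of both genotypes and in wild-type polysomal RNA were all below the filter value. Spc25 differed by -0.88 (SE 0.39, adjusted p = 0.075) in knockout and fell in wild type, at -2.54 (SE 0.44, adjusted p = 4.5e-04). Sgo1 fell in knockout, at -2.85 (SE 0.29, adjusted p = 1.7e-05), and differed by -0.23 (SE 0.32, adjusted p = 0.55) in wild type. The test of each of these differences between genotypes is the interaction above, which was called for Hells, Tk1 and Sgo1 and not for Spc25 at 1.66 (SE 0.59, adjusted p = 0.07).

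**Figure D5:**
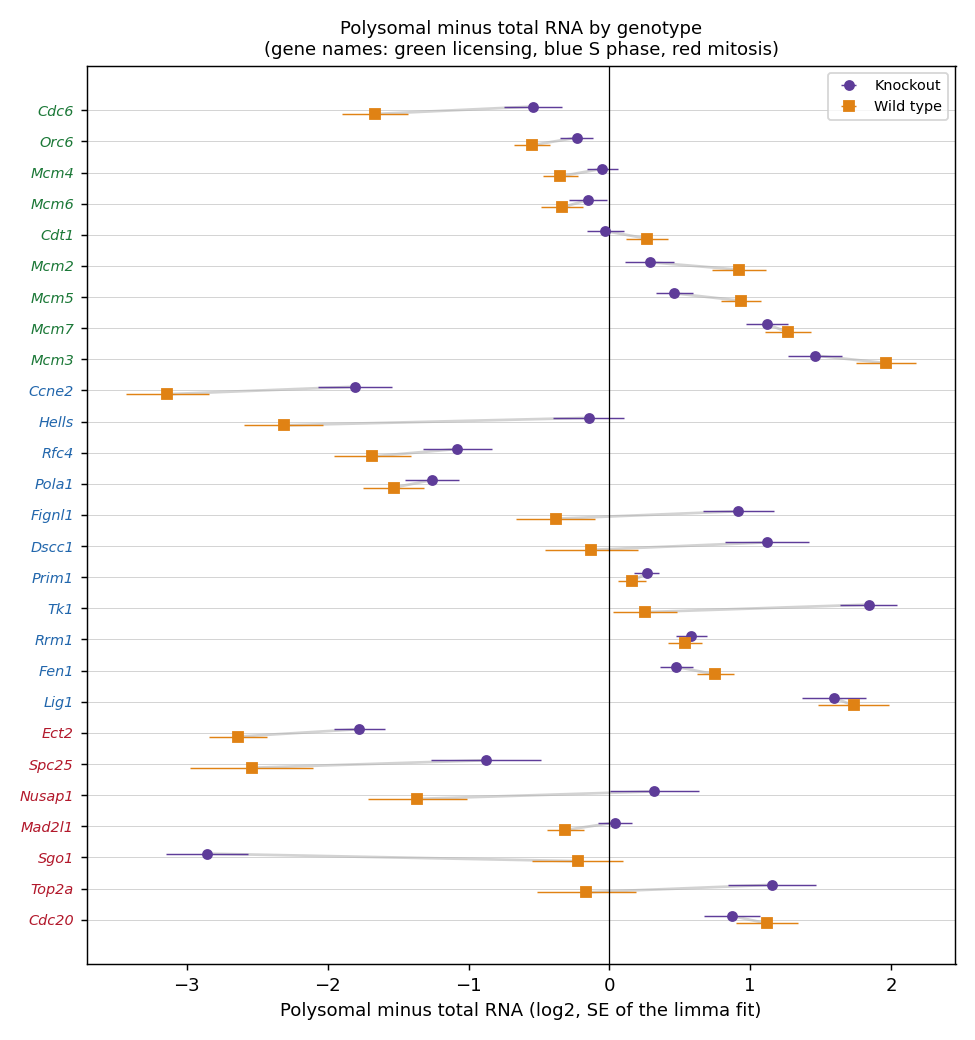
Polysomal minus total RNA (log2) of the 27 tested genes in knockout (purple circles) and wild-type lung (orange squares), with the standard error of the limma fit, ordered within each class by the wild-type value. For Hells, Tk1, Nusap1 and Spc25 the knockout circle lies to the right of the wild-type square, and for Sgo1 it lies far to the left.

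Other genes of the same pathways came from wider lists. For these lists and those that follow, the shares over all 8085 genes stand beside the counts. In total RNA 17.2% of all genes rose and 5.97% fell, and in polysomal RNA 8.36% rose and 6.77% fell. The counts of the lists were not compared with these shares by a test. Of 6 further licensing genes tested, 0 rose and 1 fell in total RNA, and 1 rose and 0 fell in polysomal RNA. Both calls were Orc4, a subunit of the origin recognition complex, at -0.47 (SE 0.12, adjusted p = 0.022) in total and 0.56 (SE 0.13, adjusted p = 0.022) in polysomal RNA. Dbf4, the activator of the kinase that fires origins, differed by 1.06 (SE 0.32, adjusted p = 0.054) in polysomal RNA. Of 26 further S phase and repair genes, 6 rose and 0 fell in total RNA, and 5 rose and 0 fell in polysomal RNA. Rpa1, the single-strand binding protein, rose by 0.42 (SE 0.07, adjusted p = 0.0046) in total RNA, the histone chaperone Asf1b by 0.71 (SE 0.19, adjusted p = 0.025) and the fork protector Tipin, in polysomal RNA, by 1.10 (SE 0.17, adjusted p = 0.0038). Usp1 and Pole4 rose in polysomal RNA by 0.48 and 0.44.

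Of 18 further mitosis genes, 4 rose and 1 fell in each kind of RNA. Cdc25b, the phosphatase that switches on the mitotic kinase, rose by 1.04 (SE 0.17, adjusted p = 0.0036) in total RNA. The centromere histone Cenpa rose in both, by 0.62 (SE 0.14, adjusted p = 0.014) and 0.70 (SE 0.16, adjusted p = 0.018), and so did the mitotic kinase Pbk, by 0.63 and 0.83. The condensin subunit Smc4 rose in polysomal RNA by 1.34 (SE 0.21, adjusted p = 0.0038) and differed by -0.05 in total RNA. Wee1, the kinase that holds the mitotic kinase back, fell in both, at -0.53 (SE 0.16, adjusted p = 0.042) and -0.89 (SE 0.18, adjusted p = 0.012).

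Among 20 genes of G1 and of E2F control, 4 rose and 1 fell in total RNA, and 2 rose and 0 fell in polysomal RNA. Cyclin D3, Ccnd3, rose by 1.56 (SE 0.16, adjusted p = 5.5e-04) in total RNA and differed by -0.06 in polysomal RNA. Its partner kinase Cdk4 rose by 0.72 (SE 0.12, adjusted p = 0.0039) and the E2F partner Tfdp1 by 1.49 (SE 0.27, adjusted p = 0.0052), both in total RNA. The pocket proteins Rb1 and Rbl1, which hold E2F back, rose in polysomal RNA by 0.52 and 0.54. Of 5 inhibitors of the cyclin kinases, 3 rose in total RNA and 2 in polysomal RNA, and none fell. Cdkn2c rose by 0.94 (SE 0.22, adjusted p = 0.015) and 1.12 (SE 0.25, adjusted p = 0.016), Cdkn2b by 0.50 and 0.71, and Cdkn1a, which codes for p21, by 1.51 (SE 0.38, adjusted p = 0.019) in total RNA.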

How the data were processed

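Lung RNA of 11 arrays in 4 groups was analysed. The deposited log2 values were made by the authors with GCRMA (a method for background, scaling and probe summary), per the submitters' processing notes (version not given in the sources used here). They ran from 0.73 to 16.7, with array medians from 4.96 to 5.04. Probe sets were named through the RefSeq table of GRCm38.p6: of 26180, 15228 matched 1 gene and 10952 matched none, and 7538 repeated an earlier row. A probe set was tested at a log2 value of at least 5 on at least 2 of 11 arrays (13802 probe sets, 5272 unnamed). With limma 3.58.1 (R 4.3.3), a mean for each group was fitted (7 residual degrees of freedom, a prior worth 2.67) for 5 contrasts, two-sided, with Benjamini-Hochberg adjustment. The fit was tested on simulated data. The number of arrays limits the precision. Genes named with array values were up to 4 called per class and contrast by smallest p (otherwise 2), 2 per class for polysomal minus total RNA, and up to 3 per wider list. The members, lists and rules were chosen with earlier results of these data known. Alternatives were other filters, scalings, thresholds, probe set rules, replicate blocks and leaving out each array. Some genes of the lists are not reported here.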

Additional observations from a re-analysis of the deposited data

Results flagged for a closer look

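The results listed here were picked out by the interaction of the limma fit. In each, the knockout minus wild-type difference was called as different between polysomal and total RNA. The mice of the 2 genotypes came from different sources, so genotype and source cannot be told apart. Of the 8 interactions called among the 60 genes, 3 (Tk1, Hells and Sgo1) held under every alternative that tested them. Among the 60 genes, the interaction in log2 units was 2.16 for Hells, 1.68 for Nusap1, 1.59 for Tk1, 1.33 for Ccne2, 1.30 for Fignl1, 1.12 for Cdc6 and 0.86 for Ect2, each a larger difference in polysomal RNA. It was -2.63 for Sgo1, with 2.11 for total RNA and -0.52 for polysomal RNA. Sgo1 read 5.82, 5.08 and 5.04 on the knockout total arrays and 3.28 or less on every other array, so its interaction rests on 3 arrays just above the filter value. That of Tk1 likewise rests on the 3 knockout polysomal arrays, the only ones on which it was above the filter value. Among the wider lists, the interaction was 1.54 for Dbf4, 1.38 for Smc4, 1.03 for Orc4, 0.72 for Tipin, 0.69 for Rbl1 and 0.60 for Rb1, and -1.62 for Ccnd3, -1.03 for Rnaseh2a and -0.52 for Rpa1. Orc4 had opposite called directions, at 0.56 in polysomal RNA and -0.47 in total RNA. Over all genes 22.3% had a called interaction. No group held enough arrays for a test of single arrays that stand apart.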

How the results depend on the processing

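No gene's direction was reversed under any alternative: of 1412 recomputed values of called genes, 1305 stayed past the threshold and 107 did not. Leaving out each array in turn gave 8 to 14 of the 60 genes called in total RNA (9 with all arrays), 11 to 17 in polysomal RNA (15), 3 to 9 for the interaction (8), 16 to 19 for polysomal minus total RNA in knockout (18) and 16 to 20 in wild type (18). Where a wild-type polysomal array was left out, the remaining array was assumed to vary like the other groups. The share of all genes called moved too, from 11.9% to 26.7% in total RNA (23.2% with all arrays). Without the filter on low values, 3 interactions and 32 wild-type polysomal minus total differences were called among the 60 genes. Over all genes it was 10.7% and 72.2%, against 22.3% and 72.4% with the filter. An adjusted p under 0.01 left 3 interactions, and 5.85% of all genes. Without the filter, which adds 26 dim genes, the median difference was 0.097 for mitosis genes in total RNA, 0.46 for S phase and 0.20 for mitosis genes in polysomal RNA, and 0.21 for S phase and 0.13 for mitosis genes for the interaction. With a filter of at least 6 on at least 3 arrays, which tests fewer genes, the medians were 0.46 for S phase genes in polysomal RNA, and 0.27 for S phase and 1.09 for mitosis genes for the interaction. Untested genes called without the filter were Pole at 0.64 and Foxm1 at -0.07 in total RNA and Cdk1 at 0.67 in polysomal RNA. Calls over all genes in total RNA were 4216 without the filter and 1876 with it, and in polysomal RNA 684 with only the groups compared and 1223 with all arrays; that fit called 11 of the 60 genes in polysomal RNA. The interaction needs all 4 groups. Deviations from the group means correlated at -0.17 to 0.32 in 15 pairs with the same replicate set letter (median 0.03). In 30 other pairs they correlated at -0.21 to 0.30. Deviations within a group of so few arrays are tied to each other, so these correlations cannot show whether the letters pair the arrays. With the letter as a replicate block, 10 genes were called in total RNA, 16 in polysomal RNA and 6 for the interaction. For polysomal minus total RNA it was 18 in knockout and 17 in wild type. Over all genes these shares were 19.9%, 12.3%, 15.9%, 63.2% and 67.8%. With the letter as a random block the counts were 9, 16, 8, 18 and 18. The shares over all genes were then 23.6%, 15.7%, 22.9%, 65.6% and 72.4%.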

Other observations

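The 26 genes below the filter include Cdk1 and the other mitotic kinases and cyclins of the list. Cdk1, the mitotic kinase, read 3.23, 3.39 and 3.52 on the knockout polysomal arrays, against 2.72 and 2.71 on the wild-type arrays, and 2.96, 2.73 and 2.75 on the knockout total arrays, against 2.74, 2.40 and 2.76 on the wild-type arrays. The knockout arrays of Cdk1 lay above the wild-type arrays in polysomal RNA and overlapped them in total RNA. Tyms, which makes thymidylate, read 3.19, 3.13 and 3.77 on the knockout polysomal arrays, against 2.58 and 2.87 on the wild-type arrays, and 2.59, 2.58 and 2.55 on the knockout total arrays, against 2.61, 2.63 and 2.62 on the wild-type arrays. It was thus higher in knockout polysomal RNA and slightly lower in knockout total RNA. Pole, the catalytic subunit of DNA polymerase epsilon, read 3.24, 3.16 and 3.33 on the knockout total arrays, against 2.41, 2.69 and 2.7 on the wild-type arrays. These 3 genes were named after their values were seen. Of all 26, 1 (Pole) had every knockout array above every wild-type array in total RNA, 10 had them below (Orc1, Ccne1, Tyms, Plk1, Foxm1, Ttk, Ndc80, Nuf2, Kif11 and Kif20a, each by less than 0.1) and 15 overlapped. In polysomal RNA 12 lay above, 2 below (Orc1 and Foxm1) and 12 overlapped. The matching shares over all untested genes were not counted, so these counts are not a result about the 26 genes. The median of all untested probe sets was itself lower on the knockout arrays. It was 2.34 to 2.39 in knockout and 2.43 to 2.49 in wild-type total RNA, and 2.30 to 2.32 and 2.33 to 2.35 in polysomal RNA. The median knockout minus wild-type difference of the 26 was -0.0047 in total and 0.072 in polysomal RNA. Rows of 4 of the 53 genes were repeated under another accession, and none of these was the row of another named gene.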
